A study of Homo sapiens with 6 samples.

Results

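MICAL proteins, the transcription factor SRF, its myocardin-related cofactors and actin-binding gene products belong to a single cytoskeletal pathway, and 10 of its genes are described here out of 63677 gene identifiers in the count table. They are the actin oxidase genes MICAL1, MICAL2 and MICAL3, the transcription factor gene SRF with the genes of its cofactors MKL1 (current symbol MRTFA) and MKL2 (MRTFB), and the SRF target genes VCL, TPM1, FLNA and ACTG1. They were chosen by their roles and with the fold changes and p-values of this same comparison of siRNA with scramble libraries in view, so their values are given as a description and carry no p-values. All 10 were among the 12507 genes with enough reads to be tested.

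RNA was sequenced from LoVo cells, a human colorectal cancer line, 48 h after transfection with siRNAs at a final 25 nM by lipofection. The scramble group received a negative control siRNA and the other group a combination of both siRNAs against SNHG15, a small nucleolar RNA host gene that gives a long noncoding RNA. Each group had 3 libraries, described in the study's methods as biological replicates, and no other genotype, dose or time was sequenced. Since the siRNAs were pooled and delivered together, an effect of a single siRNA cannot be told apart from the effect of lower SNHG15 in these libraries. By qRT-PCR the study reports several genes, CTGF among them, as deregulated with each siRNA alone or with both. MICAL2 and SRF are not named there.

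MICAL enzymes oxidize methionine residues of actin, which takes filaments apart, and methionine sulfoxide reductases of the MSRB class reverse the modification. Monomeric actin holds MKL1 and MKL2 in the cytoplasm, and when monomers are used up both cofactors enter the nucleus and bind SRF, which reads DNA at a sequence called the CArG box. SRF targets include actins, tropomyosins, filamins and focal adhesion genes as well as SRF itself, while a separate class of cofactors, the ternary complex factors such as ELK1, directs SRF to immediate early genes.

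The promoters are shown for their matches to the sequence read by SRF, a match being one of letters and not a bound site. Transcription starts of the 10 genes were taken from RefSeq (GRCh38.p14 windows from 250 bases before to 50 bases after each start, placed on GRCh37 by an exact match), and both strands were searched for the CArG box, which is a run of As and Ts between a pair of Cs and a pair of Gs. SRF held 2 CArG boxes, at bases -30 to -21 and -10 to -1 from its start, and ACTG1 and FLNA each held 1, at bases -94 to -85. A CArG box was present in 1.29% of all 35116 windows and for 1.6% of 27305 genes. The other 7 genes had no match in these windows, which says only that these letters are not within them. The E-box CACGTG, which is read by MYC among other factors, occurred at bases -177 to -172 of a MICAL2 start, at -71 to -66 of a MICAL1 start and at -145 to -140 of the ACTG1 start, against 8.77% of all genes. The TEAD motif GGAATG, likewise searched on both strands, occurred before VCL at -171 to -166 and before 1 of 4 MKL2 starts at -83 to -78, against 16.7% of all genes. No match overlapped another. The stretches below carry the CArG boxes and the MICAL E-boxes in capitals, each read 5′ to 3′ along the strand of its gene, at chr6:43138907-43139006 (+) for SRF, chr17:79479900-79479929 (-) for ACTG1, chrX:153603077-153603106 (-) for FLNA, chr11:12159748-12159777 (+) for MICAL2 and chr6:109787225-109787254 (-) for MICAL1.
SRF: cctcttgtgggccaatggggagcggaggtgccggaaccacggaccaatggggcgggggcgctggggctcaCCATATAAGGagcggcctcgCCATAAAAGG
ACTG1: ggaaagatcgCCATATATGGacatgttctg
FLNA: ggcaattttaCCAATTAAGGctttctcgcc
MICAL2: tattcctttcttCACGTGcaaaacttgttg
MICAL1: acagagccagtgCACGTGatcactctgtcc

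**Figure D1:**
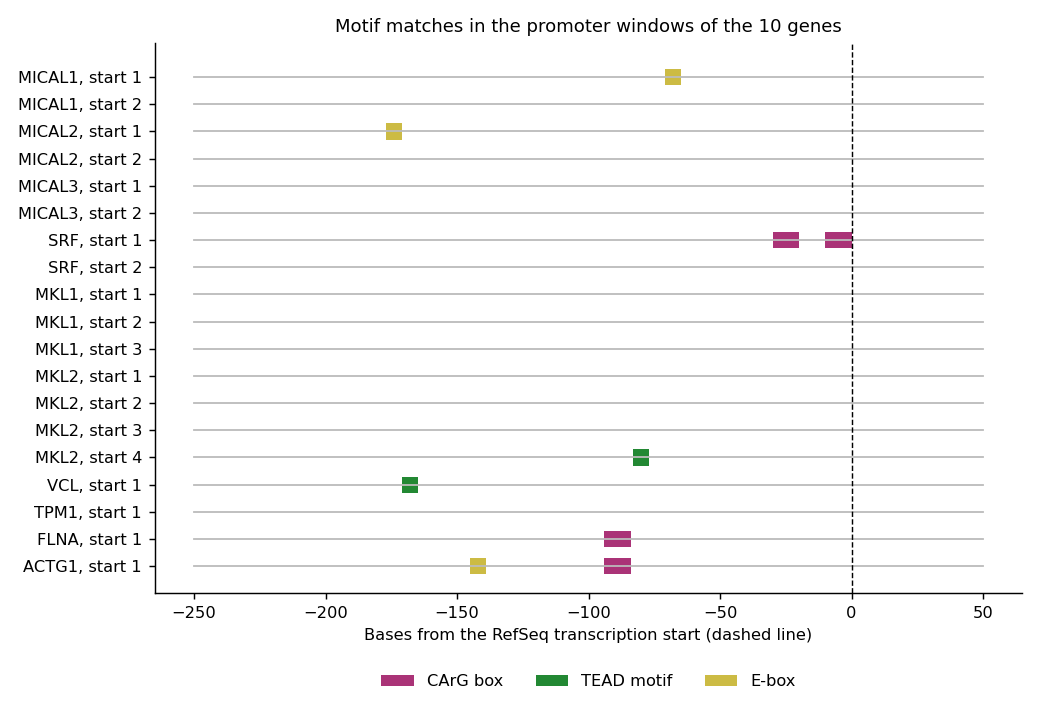
Motif matches in the promoter windows of the 10 genes. The x axis is the distance in bases from each RefSeq start (dashed line), each grey line is 1 window, and colored blocks are matches to the CArG box, the TEAD motif or the E-box. Only windows of SRF, FLNA and ACTG1 hold a CArG box, and SRF holds 2 of the 4.

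The libraries held between 3446922 (scramble 3) and 10256710 (scramble 2) counts, and the scaling factors for composition (TMM, edgeR) lay between 0.9613 and 1.059. The targeted RNA was lower: SNHG15 stood at 290, 277 and 261 CPM (counts scaled to a common library size, with TMM factors throughout) in the scramble libraries and at 77.2, 83.1 and 87.2 CPM in the siRNA libraries, a log2 fold change of -1.74 (SE 0.12). In edgeR, 671 genes were called changed at an adjusted p under 0.05, which is 5.36% of those tested. Of 9 colorectal epithelial markers, KRT8, KRT18, CDX2 and CDH1 were clearly counted, but CDH17, KRT20 and VIL1 had 0 counts in every library, EPCAM at most 1 and LGALS4 at most 4. GAPDH, named like ILK below after its values were seen, reached only 24.5 CPM in the scramble libraries, although most cells express it strongly. ILK, a kinase of focal adhesions that most cells use, had at most 3 counts in every library. Several markers of the labelled cell type and ILK were thus at or near 0. GAPDH was low but not near 0, with 70 to 270 counts in a library. The part of the read counting in these low values was not tested. Of 10 fibroblast and smooth muscle markers, 8 had 3 or fewer counts in every library, and the list summed to between 0.605 and 2.5 CPM.

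MICAL2 and SRF were lower with the SNHG15 siRNAs, and the other 8 genes of the pathway set were not called. The 2 genes were 42.8% and 54.1% of their scramble levels. Both lower calls stand beside a background of 2.23% of all genes called lower and 3.13% called higher, and nothing is read from this count because the genes were chosen with this contrast known. Likewise 2 of the 10 had every siRNA library below every scramble library, a pattern shown by 14.1% of all tested genes, while 14.7% lay wholly above. The fitted log2 fold changes of the 10 had a median of -0.06, beside 0.00050 for all genes. In these bulk libraries fewer cells of a type and less RNA per cell cannot be told apart.

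Among the actin oxidases MICAL2 was the gene that moved. MICAL2 (ENSG00000133816, chr11:12115555-12380691, plus strand, GRCh37) encodes the isoform known for acting on nuclear actin. Its level was 49.2, 57.5 and 55.3 CPM in scramble libraries 1 to 3 and 24.0, 23.0 and 22.3 CPM in the siRNA libraries. All 3 siRNA libraries lay close together and below all 3 scramble libraries, with no overlap. The means were 54.0 ± 4.29 and 23.1 ± 0.837 CPM (SD, n = 3 each), and the log2 fold change was -1.22 (SE 0.14, 95% interval -1.52 to -0.93). Only 25 of the 12507 tested genes had a lower fitted value. Leaving out any single library kept MICAL2 between -1.29 and -1.17.

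MICAL1 and MICAL3 gave no such separation. MICAL1 (ENSG00000135596, chr6:109765265-109787171, minus strand), a cytoplasmic actin oxidase, was at 77.8, 95.6 and 75.3 CPM in the scramble and 83.5, 85.0 and 65.8 CPM in the siRNA libraries. The groups overlapped, and the log2 fold change of -0.09 (SE 0.15) had an interval of -0.41 to 0.22. MICAL3 (ENSG00000243156, chr22:18270415-18507327, minus strand), linked to vesicle traffic as well as to actin, was much less abundant at 6.91, 7.16 and 4.84 CPM in the scramble and 8.87, 6.04 and 6.23 CPM in the siRNA libraries. Its groups also overlapped, and its fold change of 0.11 on the log2 scale (SE 0.24, interval -0.40 to 0.61) rested on 16 to 72 reads per library. The sign of both fold changes turned when single libraries were left out, with a range of -0.16 to 0.03 for MICAL1 and -0.10 to 0.21 for MICAL3, so no direction is given for either.

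Set against its own family, the MICAL2 level per kilobase of canonical transcript was 0.577 ± 0.061 of the MICAL1 level in the scramble libraries and 0.263 ± 0.031 in the siRNA libraries. The ratio lay between 0.529 and 0.646 in the scramble group and between 0.238 and 0.298 in the siRNA group. It reuses the MICAL2 counts given above, so its lack of overlap is not a separate observation. MICAL3 per kilobase was 0.028 ± 0.0045 of MICAL1 in the scramble and 0.033 ± 0.0065 in the siRNA libraries, which overlapped.

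**Figure D2:**
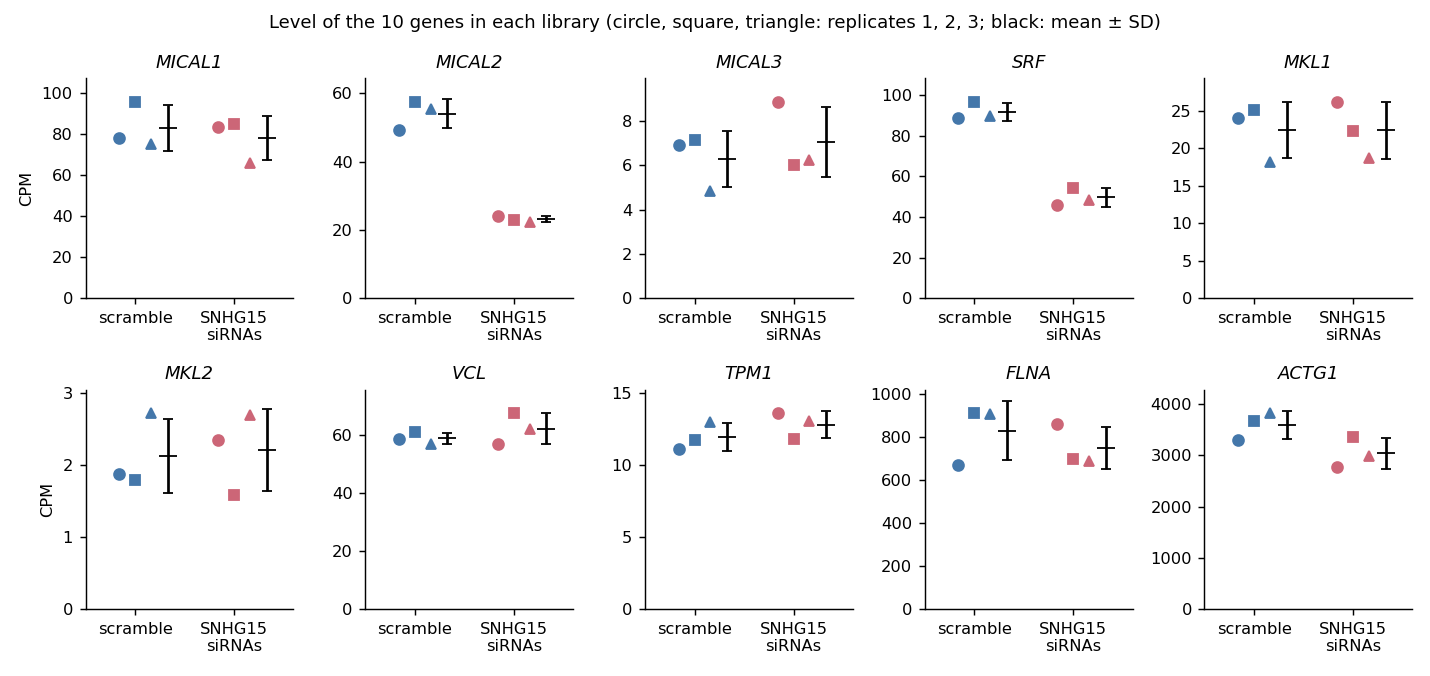
Level of each of the 10 genes in every library. The y axes give CPM from 0, points are libraries (circle, square and triangle for replicates 1, 2 and 3) and black bars are the mean ± SD of 3 libraries. MICAL2 and SRF are the panels in which the siRNA libraries (red) all lie below the scramble libraries (blue).

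SRF itself was the other gene that was lower. SRF (ENSG00000112658, chr6:43139007-43149244, plus strand) encodes serum response factor, the DNA-binding partner of the cofactors. It was at 88.7, 96.8 and 89.8 CPM in the scramble libraries and at 45.7, 54.5 and 48.6 CPM in the siRNA libraries. The highest siRNA library was well under the lowest scramble library. The means were 91.8 ± 4.37 and 49.6 ± 4.47 CPM, with a log2 fold change of -0.89 (SE 0.13, 95% interval -1.16 to -0.61) and a range of -0.96 to -0.84 over the fits without single libraries. There were 112 tested genes with a lower fitted value.

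The cofactor genes kept overlapping levels. MKL1 (ENSG00000196588, chr22:40806285-41032723, minus strand), the more abundant cofactor here, was at 24.0, 25.1 and 18.1 CPM in the scramble and 26.2, 22.3 and 18.7 CPM in the siRNA libraries. The means were nearly equal at 22.4 CPM in both groups, with a log2 fold change of -0.03 (SE 0.17, interval -0.41 to 0.35). MKL2 (ENSG00000186260, chr16:14165176-14360630, plus strand) was at 1.87, 1.79 and 2.72 CPM in the scramble and 2.36, 1.58 and 2.70 CPM in the siRNA libraries. With 9 to 23 reads per library its log2 fold change of 0.16 had an SE of 0.33 and an interval of -0.56 to 0.88, which is too wide at this depth to place MKL2 beside MKL1. The sign of both cofactors turned without single libraries (-0.17 to 0.09 for MKL1 and -0.02 to 0.34 for MKL2). Upper-quartile scaling put MKL1 at 0.01, along with a shift of the median of all genes to 0.04. Per kilobase, SRF was 4.45 ± 0.73 times MKL1 in the scramble libraries (range 3.95 to 5.29). It was 2.42 ± 0.49 times MKL1 in the siRNA libraries (range 1.87 to 2.78). This ratio reuses the SRF counts given above, so it is not a separate observation of the lower SRF level.

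The 4 SRF target genes showed no separation between the groups, whether or not their promoter window held a CArG box. VCL (ENSG00000035403, chr10:75754951-75881121, plus strand) encodes vinculin, which ties focal adhesions to actin, and was at 58.6, 60.8 and 56.9 CPM in the scramble and 56.7, 67.3 and 61.9 CPM in the siRNA libraries. Its log2 fold change was 0.07 (SE 0.13), and the interval of -0.20 to 0.35 does not reach the fold changes of MICAL2 or SRF. TPM1 (ENSG00000140416, chr15:63334819-63364114, plus strand), a tropomyosin that wraps around filaments, was at 11.1, 11.7 and 13.0 CPM in the scramble and 13.6, 11.8 and 13.0 CPM in the siRNA libraries. It gave 0.12 (SE 0.17, interval -0.25 to 0.48) on the log2 scale, with the groups overlapping.

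FLNA and ACTG1, whose promoters hold a CArG box, were both slightly under their scramble means. FLNA (ENSG00000196924, chrX:153576892-153603002, minus strand) encodes filamin A, an actin crosslinker. It was at 673, 912 and 907 CPM in the scramble and 863, 700 and 691 CPM in the siRNA libraries. The lowest library of all was scramble 1, so the groups overlapped, and the log2 fold change was -0.14 (SE 0.15, interval -0.46 to 0.17). ACTG1 (ENSG00000184009, chr17:79476439-79490873, minus strand) encodes gamma-actin, 1 of the cytoplasmic actins. Its level was 3287, 3661 and 3812 CPM in the scramble and 2767, 3360 and 2977 CPM in the siRNA libraries. Only siRNA library 2 reached into the scramble range, and the log2 fold change of -0.24 (SE 0.12) had an interval of -0.50 to 0.02. Without single libraries ACTG1 stayed between -0.32 and -0.18 and FLNA between -0.28 and -0.06.

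**Figure D3:**
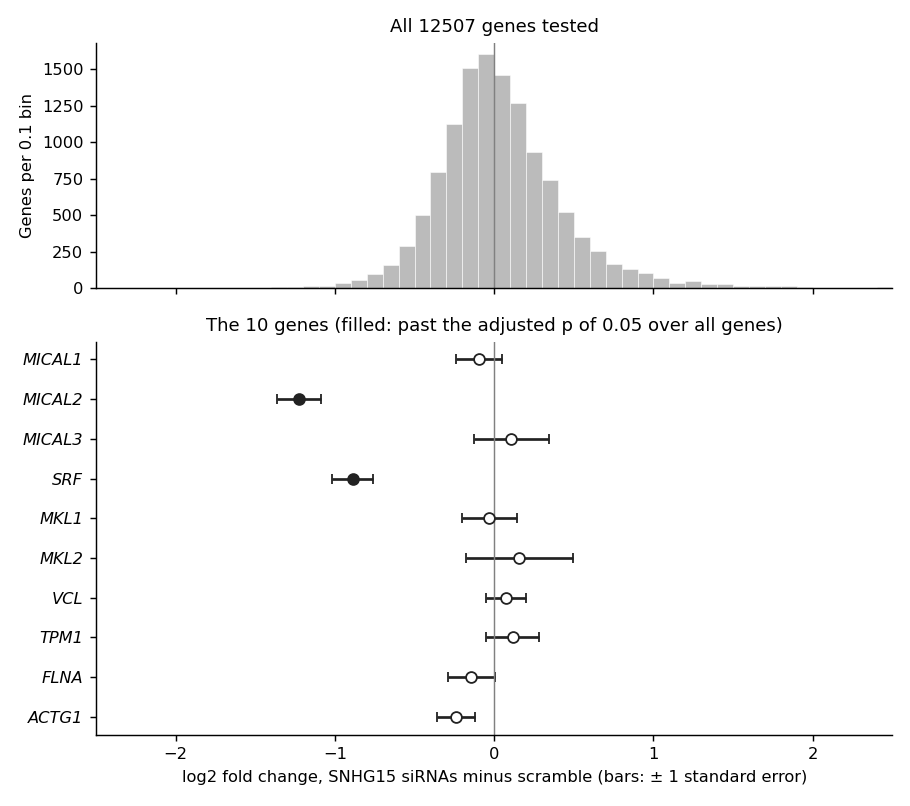
Log2 fold changes of the 10 genes below the distribution of all genes tested. The upper panel counts genes in bins of the log2 fold change, values past the axis ends being placed in the end bins, and in the lower panel points are fitted values with bars of ± 1 standard error. MICAL2 at -1.22 and SRF at -0.89 (filled) lie in the left tail, and the other 8 lie between -0.24 and 0.16.

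The uncalled genes spanned -0.24 to 0.16 on the log2 scale, inside the 10th to 90th percentile of all tested genes (-0.39 to 0.52). Between libraries, the log2 CPM of MICAL2 and SRF followed each other with Pearson's r = 0.98 over the 6 libraries, a description over libraries of which the 3 siRNA libraries are low in both. The same grouping stands behind the r of 0.84 between SRF and ACTG1 and of 0.78 between MICAL2 and ACTG1. The 5 tested genes most like MICAL2 in log2 CPM over these libraries were ENSG00000267149, SNRPG, RPL36AP43, NME6 and DAZAP1, with r from 0.9956 to 0.9979. Those most like SRF were RCC1, UBR7, CCDC190, LYAR and NAV2-AS6, with r from 0.9930 to 0.9963. SNHG15 itself, the target of the siRNAs, had an r of 0.9834 with MICAL2 and 0.9839 with SRF. The same grouping of the libraries stands behind these values and those of the genes most like MICAL2 and SRF.

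The order of the levels per kilobase shifted at MICAL2 and SRF. In the scramble libraries ACTG1 stood highest at 1869 ± 141 CPM per kilobase, followed by FLNA at 97.6 ± 16.0, MICAL1 at 24.2 ± 3.22, SRF at 21.7 ± 1.03, MICAL2 at 13.8 ± 1.10, VCL at 10.7 ± 0.357 and TPM1 at 9.83 ± 0.784. MKL1 at 4.96 ± 0.825, MICAL3 at 0.667 ± 0.135 and MKL2 at 0.242 ± 0.058 CPM per kilobase were the lowest. Of these neighbors, MICAL1 and SRF overlapped in their ranges, as did VCL and TPM1. In the siRNA libraries SRF at 11.7 ± 1.06 overlapped VCL at 11.3 ± 0.966, VCL overlapped TPM1 at 10.5 ± 0.754, and MICAL2 at 5.92 ± 0.215 stood below TPM1 and overlapped MKL1 at 4.95 ± 0.832 CPM per kilobase. These levels depend on the transcript length used. Over all annotated exons in place of the canonical transcript, TPM1 would be at 0.813 and MICAL2 at 2.68 CPM per kilobase in the scramble libraries, so the order of neighbors is no firmer than the choice of length.

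**Figure D4:**
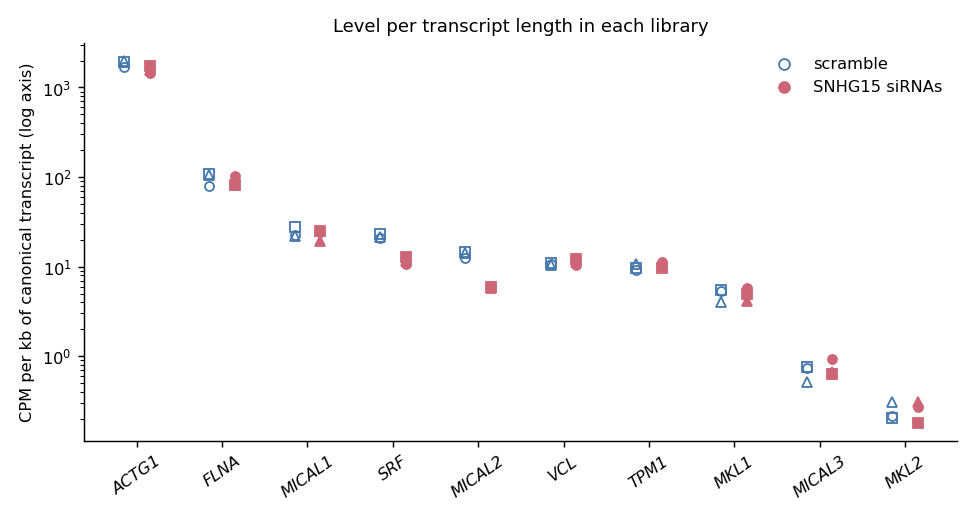
Level of the 10 genes per kilobase of canonical transcript in each library. The y axis is logarithmic, open blue symbols are scramble and filled red symbols siRNA libraries. The genes run from ACTG1, near 1869 CPM per kilobase, to MKL2, near 0.242, and the colors separate at SRF and MICAL2.

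Shared sequence limits some of these counts. VCL shares 11.1% of its exonic bases with AP3M1 on the opposite strand, TPM1 18.0% with TPM1-AS on the opposite strand and MICAL1 4.46% with ZBTB24 on its own strand. MICAL3 shares 16.2% with ENSG00000093100 and MKL1 5.95% with RPL4P6, both on their own strand. In these overlaps and in that of MICAL1, reads can be lost as ambiguous under any strand setting. ENSG00000093100 had 0 counts in every library and RPL4P6 at most 3, but ZBTB24 had 102 to 265. The strand setting of the counting is not given in the sources used here, so for VCL and TPM1 reads of the partner may be included, or lost as ambiguous. In the annotation used here, MICAL2 and SRF shared no exonic base with another gene that had counts. The annotation behind the counts is not given, so overlaps in the counting may differ from those listed. ACTG1 and ACTB have near-identical copies, of which 12 annotated pseudogenes held counts, summing to between 2.49 and 4.89 CPM in a library, and reads placed on such copies make the ACTG1 level uncertain.

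Around the 10 genes, 9 lists with 139 further actin and SRF genes were examined. The MICAL-like gene MICALCL had no match by name in the annotation used here. The other 138 matched an identifier, and 112 of them were tested. Of these, 4 rose (3.57%) and 4 fell (3.57%), in all 8 or 7.14%, beside 5.36% of all tested genes, and their median log2 fold change was -0.03. The count was 5 without scramble replicate 1, 3 without scramble replicate 2 and 14 without siRNA replicate 1. At an unadjusted p under 0.05 edgeR had 22.5% of all tested genes, and DESeq2 called 6.05% of the genes it tested, 3.02% lower and 3.03% higher, shares against which the counts of the lists below are to be read. Adjusted p-values below are those of the edgeR fit, by Benjamini and Hochberg's method over all 12507 genes.

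Of the methionine sulfoxide reductases and the MICAL-like genes 6 were tested, of which 1 rose and 5 did not pass, with a median log2 fold change of 0.30. MSRB2, a mitochondrial methionine sulfoxide reductase, rose from 25.3 ± 2.99 to 37.7 ± 3.14 CPM (log2 fold change 0.59, SE 0.15, adjusted p = 0.0360). This call held in only 1 of the 6 fits without a single library. MSRB1, the member known to reduce actin, had a log2 fold change of 0.22 and MSRA, which acts on the other stereoisomer of the oxidized residue, of -0.15, both short of the threshold.

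Of the other SRF cofactors and regulators 6 were tested and 6 did not pass in edgeR, with a median of -0.33 and 3 of them at an unadjusted p under 0.05. DESeq2 called 2 of them lower, SRFBP1 and FHL2. SRFBP1, an SRF-binding protein, was at 131 ± 17.1 CPM in the scramble and 89.4 ± 17.8 CPM in the siRNA libraries (log2 fold change -0.56, SE 0.16, adjusted p = 0.0598). FHL2, a LIM protein and SRF target that binds SRF, was at 1721 ± 46.4 and 1241 ± 245 CPM (-0.47, SE 0.14, adjusted p = 0.0731), and its 4 promoter windows, which may overlap, hold 3 CArG box matches.

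Among 24 tested MRTF-SRF target genes, beyond the 4 above, 3 fell, 2 rose and 19 did not pass in edgeR, with a median of -0.11. Of all tested genes 2.23% were called lower and 3.13% higher. In this list 8 genes had an unadjusted p under 0.05, and DESeq2 called 4 lower and 2 higher. The gene added by DESeq2 was FHL2, which is also in the list of cofactors. The genes that fell in edgeR were CTGF, CYR61 and CALD1. CTGF and CYR61 encode matricellular proteins of the CCN family that are also known targets of YAP and TEAD, and CALD1 encodes caldesmon, an actin and tropomyosin binder. CTGF stood at 7.85, 10.4 and 9.68 CPM in the scramble and 1.80, 2.45 and 4.46 CPM in the siRNA libraries (log2 fold change -1.65, SE 0.30, adjusted p = 0.00823). CYR61 fell from 439 ± 59.4 to 182 ± 54.7 CPM (-1.27, SE 0.20, adjusted p = 0.0051), with siRNA library 1 the lowest at 119 CPM. CALD1 fell from 66.3 ± 8.19 to 33.1 ± 1.75 CPM (-1.01, SE 0.14, adjusted p = 0.0034), and CALD1 and CYR61 were called in all 6 fits without a single library.

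The 2 that rose in the same list were ITGB1 and TAGLN2. ITGB1, the integrin beta-1 chain of focal adhesions, went from 155 ± 27.6 to 397 ± 150 CPM (log2 fold change 1.35, SE 0.22, adjusted p = 0.00575), and siRNA library 1 at 569 CPM was far above the others. Without siRNA replicate 1 the log2 fold change of ITGB1 was 0.99 (adjusted p = 0.0013 in edgeR). ITGB1 was called in all 6 fits without a single library. TAGLN2, a transgelin, went from 179 ± 9.31 to 300 ± 63.1 CPM (0.75, SE 0.15, adjusted p = 0.0134). The classical smooth muscle target TAGLN, counted at only 3.04 ± 0.562 and 2.21 ± 0.895 CPM, and the nonmuscle targets MYH9 and TPM4, both at -0.11 on the log2 scale, did not pass.

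Of 10 tested targets of the ternary complex factors, 1 fell and 9 did not pass in edgeR, with a median of -0.33, and DESeq2 called 2 lower, EGR1 and MCL1. MCL1, a survival factor of the BCL2 family, had a log2 fold change of -0.46 (adjusted p = 0.0602) in edgeR. EGR1, an immediate early transcription factor with 2 CArG boxes in its promoter window, fell from 346 ± 33.2 to 193 ± 36.6 CPM (log2 fold change -0.84, SE 0.15, adjusted p = 0.00804). Among other called genes, CTGF, CALD1, ITGB1, TAGLN2, MSRB2 and CAPZA1 had 0 CArG boxes in their windows. The windows of ACTN1, CNN2, TPM4, SVIL and TGFB1I1, which were not called in edgeR, held 1 box per gene. FOS was at 10.5 ± 0.235 and 8.47 ± 1.39 CPM and JUNB at 61.5 ± 10.2 and 47.7 ± 5.18 CPM, neither past the threshold. Without scramble replicate 2 the calls of CTGF (adjusted p = 0.0637), EGR1 (0.0535), TAGLN2 (0.0804), CAPZA1 (0.164) and MSRB2 (0.161) were lost in edgeR. TAGLN2 was also lost without scramble replicate 1 (adjusted p = 0.0702), CAPZA1 also without scramble replicate 1, siRNA replicate 2 or siRNA replicate 3 (0.0793 to 0.111), and MSRB2 in every such fit except that without siRNA replicate 1.

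In the lists of the actin machinery itself the counts of calls were too small to be set apart from the 5.36% of all genes. Of 13 tested actin isoforms and monomer regulators, such as cofilin and profilin, 13 did not pass in edgeR, 0 had an unadjusted p under 0.05 and DESeq2 called 0, with log2 fold changes of -0.20 to 0.36. ACTB was at 881 ± 54.9 CPM in the scramble and 801 ± 64.4 CPM in the siRNA libraries, and the ratio of ACTG1 to ACTB per kilobase was 3.84 ± 0.18 and 3.59 ± 0.46. The genes of smallest p were CAP2 (0.36, adjusted p = 0.269) and CAP1 (0.23, adjusted p = 0.311), which encode cyclase-associated proteins. Of 24 nucleation and elongation genes 24 did not pass in edgeR, 5 of them at an unadjusted p under 0.05 and 0 called by DESeq2. The formin gene DAAM1 was at 2.46 ± 1.23 and 5.26 ± 1.6 CPM (1.23, SE 0.36, adjusted p = 0.0677), and the ARP2/3 subunit gene ARPC5 was at -0.40 (adjusted p = 0.102).

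Among 10 capping and severing genes 1 rose and 9 did not pass in edgeR, 5 of the 10 having an unadjusted p under 0.05, and DESeq2 called CAPZB, the beta subunit of capping protein, lower as well (-0.38 in edgeR, adjusted p = 0.0761). CAPZA1, an alpha subunit of capping protein, went from 15.5 ± 5.39 to 27.4 ± 4.13 CPM (0.89 on the log2 scale, SE 0.23, adjusted p = 0.0397). That call held in 2 of the 6 fits without a single library. The 20 crosslinking and focal adhesion genes did not pass in edgeR, with 4 at an unadjusted p under 0.05, 0 called by DESeq2 and a median of 0.16. LPP, a zyxin relative, was at 0.63 (adjusted p = 0.0546) and MSN, which encodes moesin, at -0.67 (adjusted p = 0.105). Of 11 tropomyosin, caldesmon and nonmuscle myosin II genes, only CALD1 was past the threshold, and it is the same gene as in the SRF target list.

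**Figure D5:**
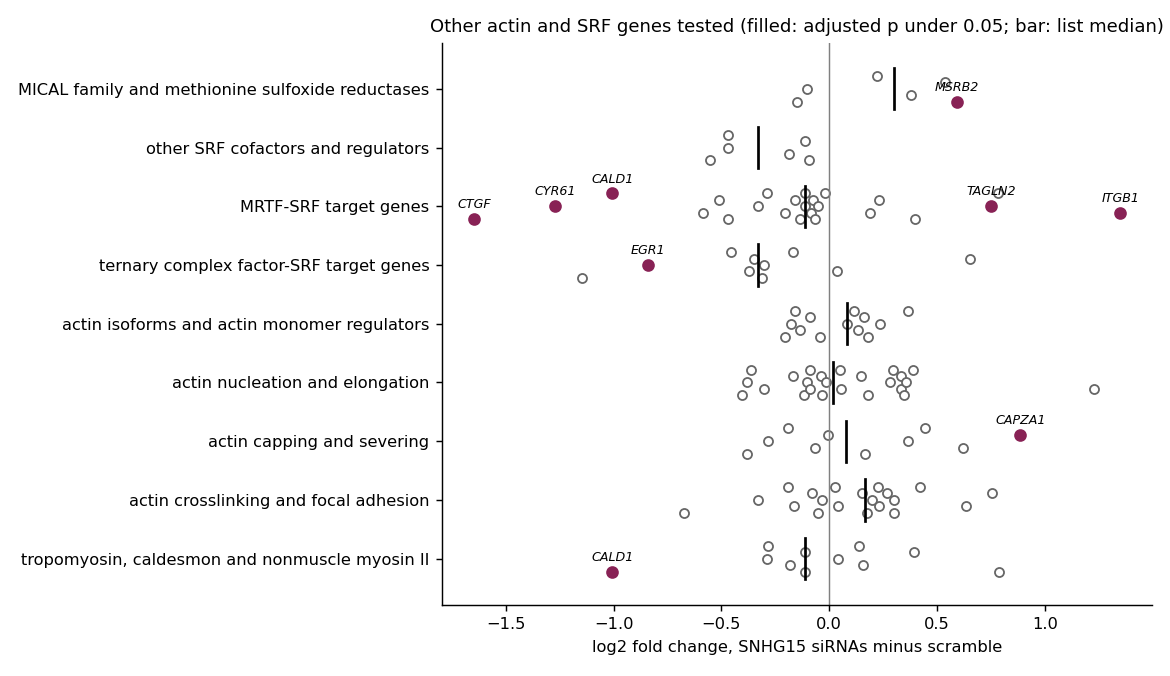
Log2 fold changes of the tested genes in 9 further lists of actin and SRF genes. Each point is 1 gene, filled points carry their names and are past an adjusted p of 0.05, and the black bar is the median of the list. CALD1 is drawn in both lists that hold it, and the filled points lie on both sides of 0.

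The CArG box in a promoter window was also set beside the calls of all genes, as a description. Among tested genes with a RefSeq window matched by symbol, 142 had a box, of which 7 were lower (4.93%) and 4 higher (2.82%), with a median log2 fold change of -0.04. Of 8972 tested genes without one, 209 were lower (2.33%) and 261 higher (2.91%). The lower genes with a box were SRF, which is 1 of the 10 genes and was chosen with its fold change in view, and EGR1, VOPP1, AKAP12, HNRNPD, MACROH2A1 and DSE. The higher genes with a box were ISG15, ZNF562, DACT3 and FBXL22. MICAL2, which had the lowest log2 fold change of the 10 genes, had no box in either of its windows, and the genes with a box had log2 fold changes of -0.89 (SRF), -0.24 (ACTG1) and -0.14 (FLNA).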

How the data were processed

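RNA of 3 scramble and 3 SNHG15 siRNA libraries of LoVo cells was made into TruSeq Stranded mRNA libraries and sequenced as 75 bp paired-end reads. The deposited values are raw counts of reads per gene, not normalized by the authors. The submitters' processing notes name STAR, featureCounts and hg19, while the methods name bowtie2; the annotation, the strand setting and the handling of reads with several placements are not given in the sources used here. Groups and replicate numbers came from the sample titles.

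Counts were filtered (filterByExpr, minimum count 10, minimum total 15), scaled by TMM and tested by the quasi-likelihood test of edgeR 4.0.16 (R 4.3.3), siRNA against scramble, without a block, with Benjamini-Hochberg adjustment over all tested genes. The standard error of a log2 fold change was its size over the square root of F. CPM used TMM library sizes, log2 CPM a prior count of 2, and levels per kilobase the Ensembl canonical transcript of GENCODE lifted to GRCh37. Library totals of 3446922 to 10256710 limit low genes; errors are between libraries. The scripts were tested on simulated counts. Names matched 55665 of 63677 identifiers.

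The members, gene lists and alternatives were chosen with earlier results of these data known. The text names all 10 members, SNHG15, up to 4 genes past the threshold per list and direction by smallest p, or the 2 of smallest p in a list with none, and the 5 genes most correlated with MICAL2 and SRF; other genes were named after their values were seen. Alternatives were DESeq2 1.42.0, RLE and upper-quartile scaling, no filter, at least 10 counts in every library, a replicate block, and leaving out each library. 1 list of the pathway is not reported here.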

Additional observations from a re-analysis of the deposited data

How the results depend on the processing

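MICAL2 and SRF were called lower in every alternative, including those without single libraries. These fits reuse the libraries whose results were in view when both genes were chosen, so they give no independent evidence. MKL2 was not tested when at least 10 counts in every library were required. The number of called genes over the whole table (671) became 1312 without a filter, where 23675 genes were tested, and ran from 139 to 812 without single libraries. It was 199 without scramble replicate 1, 139 without scramble replicate 2, 266 without scramble replicate 3 and 356 without siRNA replicate 2. Without siRNA replicate 1 it was 812, above the 671 of all libraries. Upper-quartile scaling gave 515 higher and 230 lower genes, against 392 and 279. The count in the 9 further lists (8) was 12 with DESeq2 and 16 without a filter, and lay between 3 and 14 when single libraries were left out (5 without scramble replicate 1, 3 without scramble replicate 2, 14 without siRNA replicate 1). Fits without single libraries have fewer samples, and the fit without a filter tests more genes. The count over the whole table and that in the further lists were both higher without siRNA replicate 1. Set against sampling noise, the spread of counts between siRNA replicate 1 and replicates 2 and 3 was 14.5 and 20.4 (chi-square per degree of freedom). It was 4.64 between siRNA replicates 2 and 3, and 4.34 to 9.48 between scramble libraries. What caused the shifts in the numbers of called genes was not tested. SNHG15 stayed between -1.78 and -1.70 on the log2 scale.

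Replicate numbers are shared between the groups in the labels, which do not say whether same-numbered libraries were handled together. No pairing was evident in how same-numbered libraries deviated (r of -0.0703, 0.155 and -0.0416), but so few values cannot exclude one. With a replicate block 543 genes were called, MICAL2 (-1.22) and SRF (-0.89) among them, and 8 genes of the further lists. MSRB2 was no longer past the threshold (adjusted p = 0.0629).

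Depth limits MKL2, at 9 to 23 reads in a library, MICAL3 at 16 to 72, and the low genes DAAM1 (10 to 49), TAGLN (8 to 32) and CTGF (13 to 105).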
